A study of Mus musculus with 24 samples.

Results

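The effect of losing the transcription factor FoxO1 from hepatocytes was measured as 1 average over 2 mouse models of liver deletion. All 24 liver libraries of the series entered the comparison, 12 from deleted livers and 12 from control livers, chosen by their labels. In the acute model, C57BL/6 mice with the FoxO1lox/lox genotype received the viral vector AAV8.TBG.Cre (Cre) or AAV8.TBG.eGFP (GFP), and livers were collected on day 21. In this vector the liver-specific TBG promoter drives Cre recombinase, or a green fluorescent protein in the controls. In the constitutive model, C57BL/6 livers labelled FoxO1-/- (KO) came from a cross of floxed mice with an Albumin-cre line, in which Cre acts from early liver development on, and livers labelled FoxO1lox/lox served as wild type (WT). All 12 controls thus carried the floxed allele, the acute controls also a virus, and no virus is named for the constitutive mice. Each model was sampled after a 4 h fast and after a 4 h fast followed by 1 h of refeeding, so that the libraries form 4 strata with 3 deleted and 3 control libraries in each. Age and sex are not given in the labels. Whether the libraries of a group came from separate animals is not stated either, so p-values measure how these samples vary among themselves, which may be technical.

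FoxO1 is a forkhead transcription factor through which hepatocytes respond to insulin. Insulin signalling through Akt phosphorylates FoxO1 and keeps it out of the nucleus, while in fasting it is nuclear and activates genes of glucose production and the genes of insulin-like growth factor binding proteins. In mouse liver, its loss is known to lower glucose production.

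Expression was deposited as FPKM, fragment numbers corrected for transcript length and library size, and the confidence limits given beside each value imply 6292733 to 15719470 fragments per library. Among the acute libraries 1 per group was deeper (12877977 to 15719470 fragments: Cre fasted 1, GFP fasted 3, Cre refed 1 and GFP refed 3) than the other 8 (6292733 to 7647131), and the constitutive libraries lay between 12056561 and 13828649. The tissue label fitted its markers: 10 of 10 hepatocyte-defining genes were expressed, with a summed level of 73350 to 96390 FPKM in deleted livers and 80530 to 102200 FPKM in controls. On the second principal component, the 8 shallower acute libraries lay at 5.92 to 21.9. The 4 deeper acute libraries lay at -12.4 to 0.29, within the range of the constitutive libraries (-26.0 to 0.56). The part of depth in this component was not tested. One library, KO refed 2 of the constitutive model, stood apart from the others on the same component, at -26.0. It also had the lowest levels of the 4 Y-linked genes examined, with Eif2s3y at 12.9 FPKM in KO refed 2, against 21.3 to 31.6 FPKM in the other 23 libraries, and Ddx3y at 2.99 FPKM, against 4.94 to 11.3 FPKM. Xist, the X-inactivation RNA of female cells, was at most 0.0372 FPKM in any library. Without KO refed 2, the average effect defined below gave 265 calls, 238 of them among the 296 of all libraries, and 13 genes were called in each model alone. In bulk liver, fewer cells of a type and less RNA per cell cannot be told apart.

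Foxo1 (chromosome 3, 52268337 to 52350109, mm10) was lowered in every deleted library. Its lowest, median and highest levels were 0.212, 0.397 and 0.571 FPKM in the 12 deleted livers, against 4.21, 5.52 and 6.81 FPKM in the 12 controls, so the groups did not overlap. By stratum the log2 changes were -2.05 acute fasted, -2.34 acute refed, -2.13 constitutive fasted and -2.23 constitutive refed. The average change was -2.19 ± 0.058 on the log2(FPKM + 1) scale (SE; limma, adjusted p = 9.66e-18), a scale on which the change of a gene this low is understated, and mean FPKM was 13.6-fold lower in the deleted livers. Genes were tested if at least 3 libraries had at least 1 FPKM, and all 12 deleted livers lay below that level. Foxo1 was therefore tested only because of its control levels, and its p-value describes these values without adding support. Foxo3, a second FoxO factor of the liver, had medians of 3.44 against 3.74 FPKM in deleted and control livers and did not pass the test (-0.25 ± 0.092, adjusted p = 0.178). Foxo4 had medians of 7.73 against 7.97 FPKM (-0.011 ± 0.053, adjusted p = 0.952), so neither factor passed as higher in livers without FoxO1.

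Of the genes that passed the test, more were lower than higher in livers without FoxO1. Of 10682 genes tested, 296 (2.77%) passed limma's test of the average effect at an adjusted p below 0.05, here termed called. Of these, 202 were lower (1.89% of the genes tested) and 94 were higher (0.88%) in deleted livers, whereas over all genes tested 48.9% lay below 0. Most changes were moderate: the median size among called genes was 0.32 on the log2 scale, and 12 called genes exceeded 1. Without any adjustment, 1638 genes (15.3%) had a p below 0.05, 851 lower (7.97%) and 787 higher (7.37%). The number of calls moved between 198 and 350 when each library was left out in turn, with 198 without GFP fasted 3 of the acute model, of which 197 were among the 296.

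**Figure D1:**
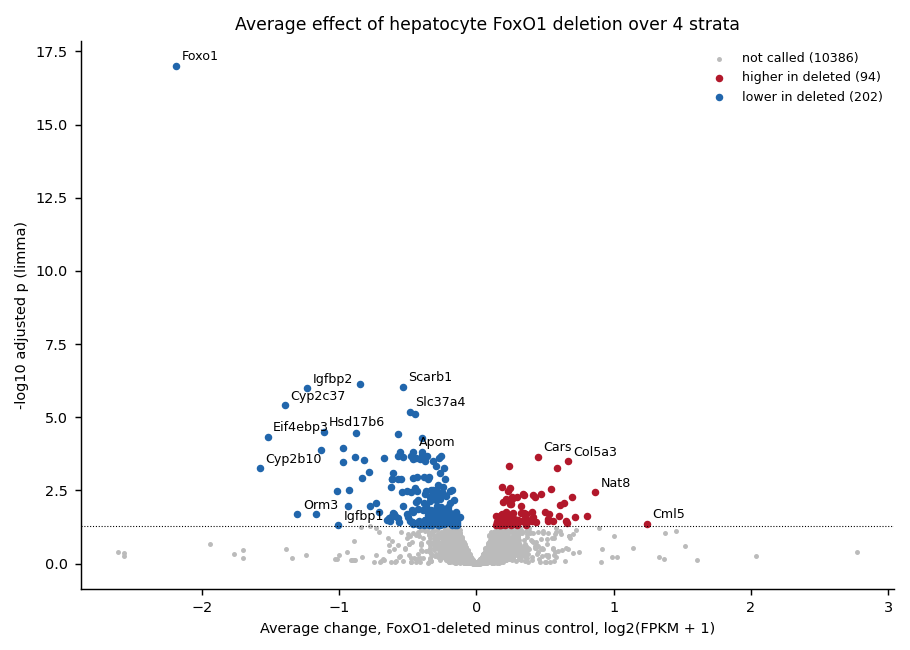
Average change of each of 10682 genes, deleted minus control, in log2(FPKM + 1) on the horizontal axis, against -log10 of limma's adjusted p on the vertical axis. The 202 genes called lower (blue) reach further from 0 than the 94 called higher (red), Foxo1 stands alone at -2.19, and the dotted line marks an adjusted p of 0.05.

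Each called gene had the same sign in both models, and 284 of the 296 had the same sign in all 4 strata (199 lower and 85 higher). Over all genes tested, 19.8% had 1 sign in all 4 strata. Since the call itself uses these values, this describes the calls and adds no support to them. In 31 genes (0.29% of those tested) the 3 deleted and 3 control libraries were fully apart in the same direction in every stratum, and all 31 were called. They included Scarb1, Igfbp2, Cyp2c37, Cyp2c54, Slc37a4, Hsd17b6, Nlrp12, Apom, Cyp27a1, Rbp4, Gpcpd1 and Kng1 among genes lower in deleted livers. Cars and Wdr45 were the 2 that were higher. In 3 genes (0.0281%) all 12 deleted libraries lay apart from all 12 controls: Foxo1 and Scarb1 below them (0.0187%) and Cars above them (0.00936%).

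The models share no library, so each can be read in the genes called in the other. Fitted alone, the acute model called 148 of 10452 genes (1.42%), 57 higher (0.545%) and 91 lower (0.871%) in Cre livers, and the constitutive model called 69 of 10375 (0.665%), 25 higher (0.241%) and 44 lower (0.424%) in KO livers. Of 146 acute calls that were also measured in the constitutive model, 121 had the same sign there (82.9%). Of 68 constitutive calls measured in the acute model, 56 had the same sign (82.4%). Over all 10238 genes measured in both, 53.95% had the same sign. The genes that fell and those that rose are given apart. The 90 genes lower in acute Cre livers had a median log2 change of -0.54 there and -0.24 in KO livers, with 78 below 0. The 44 genes lower in KO livers had medians of -0.55 there and -0.50 in Cre livers, with 42 below 0. Of the 56 genes higher in Cre livers, 43 were above 0 in KO livers, but with a median of 0.083, against 0.49 in Cre livers. Of the 24 genes higher in KO livers, 14 were above 0 in Cre livers, with a median of 0.078, against 0.52 in KO livers. Selecting genes by size in 1 model makes their values there larger than in the other. Across all genes the 2 models' changes had a Spearman rho of 0.13 and a Pearson r of 0.21, given as a description.

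**Figure D2:**
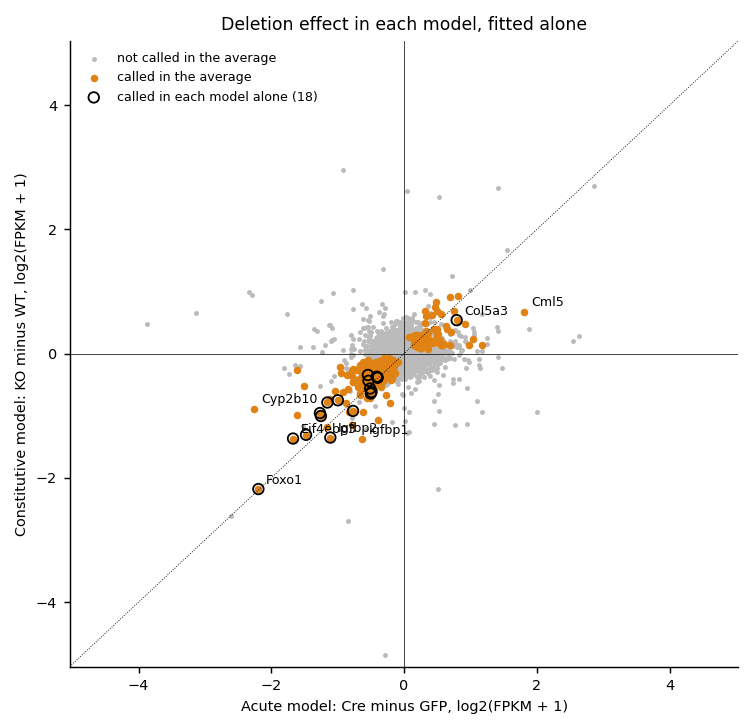
Change of each gene in the acute model (Cre minus GFP, horizontal) and in the constitutive model (KO minus WT, vertical), each fitted alone, in log2(FPKM + 1). The 18 genes called in each model alone (circled) include 17 in the lower left, near the dotted line of equal change, and Col5a3 in the upper right.

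The genes called in each model on its own numbered 18, which is 12.2% of the acute list and 26.1% of the constitutive list, and all had the same sign. The 17 lower in deleted livers were Foxo1, Igfbp2, Cyp2c37, Cyp2c54, Eif4ebp3, Hsd17b6, Scarb1, Slc37a4, Nlrp12, Serpinb1a, Cyp27a1, Mug1, Plscr2, Slc16a10, Syt1 and the clones 8430419L09Rik and B930025P03Rik. Col5a3, which encodes a fibrillar collagen chain, was the 1 gene higher. Slc16a10, a carrier of aromatic amino acids, changed by -0.50 in the acute and -0.64 in the constitutive model on the log2 scale. The antiproteinase gene Mug1 changed by -0.49 and -0.62. The number called in both models is fragile: it was 10 without WT refed 3 of the constitutive model, and 11 without GFP fasted 1 or Cre fasted 2 of the acute model or KO fasted 2 of the constitutive model. Of the 296 genes of the average effect, 173 were called in neither model alone.

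**Figure D3:**
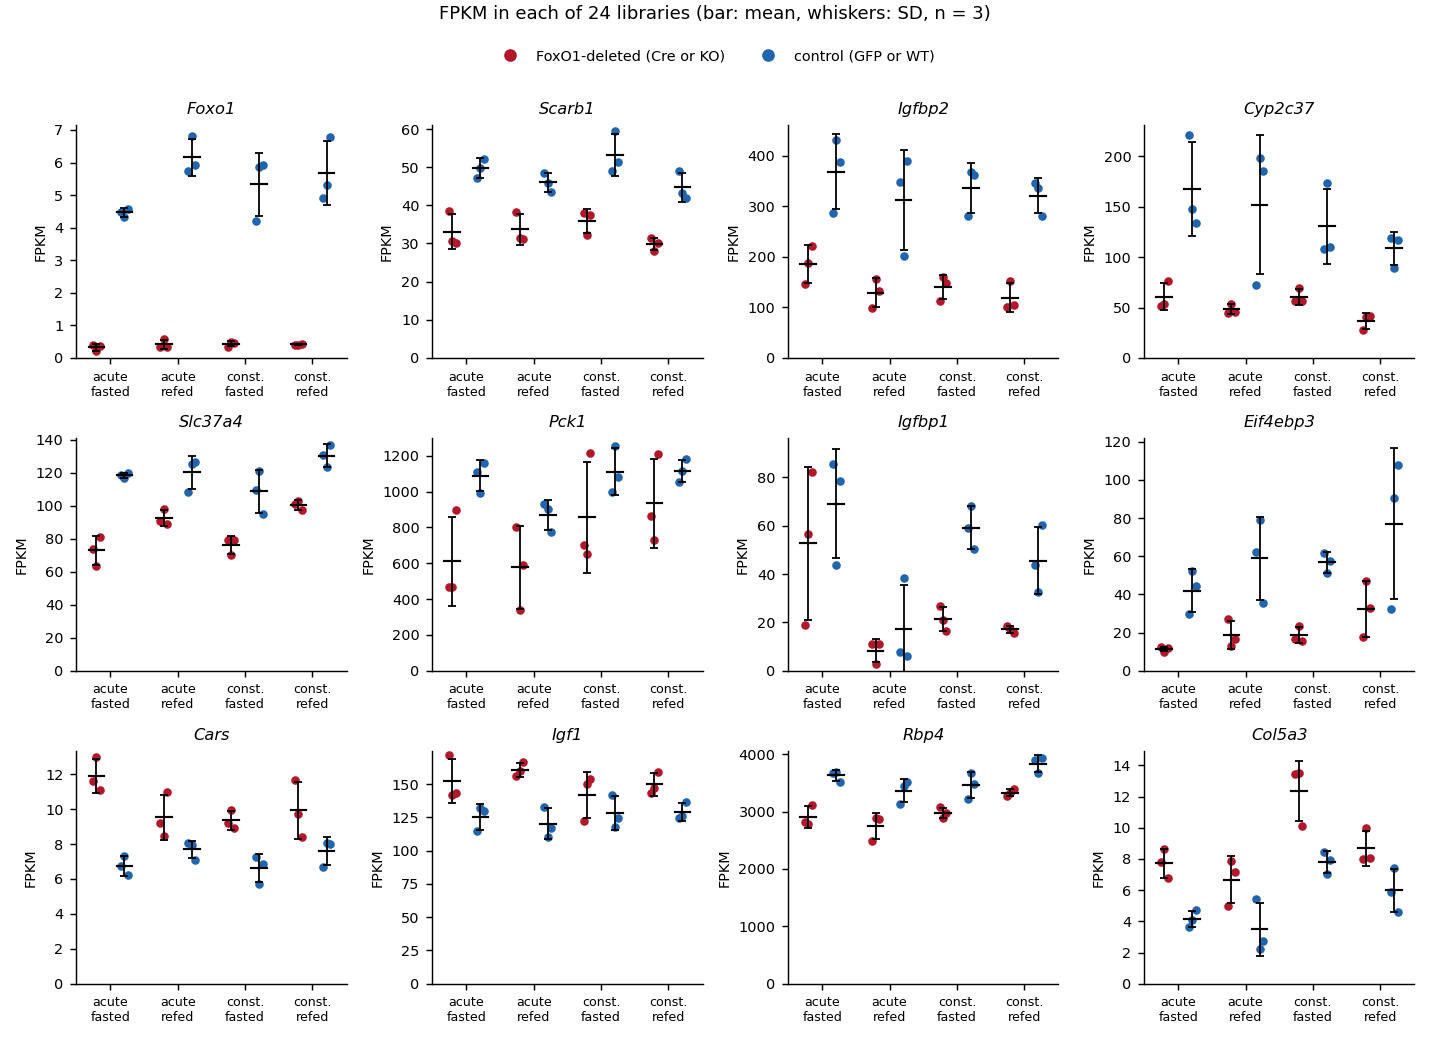
FPKM of 12 genes in each of 24 libraries, with deleted livers (red) left of their controls (blue) in each of the 4 strata, and bars and whiskers for mean and SD (n = 3). All deleted points lie below all controls for Foxo1 and Scarb1 and above them for Cars, while Igfbp1 overlaps its controls in refed acute livers.

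Among textbook FoxO1 targets of glucose production, Slc37a4, Pck1, Ppargc1a and Klf15 fell, while G6pc and Irs2 did not pass. Slc37a4, the transporter that feeds glucose-6-phosphate into the endoplasmic reticulum for release as glucose (chromosome 9, 44398176 to 44402965), was fully apart from its controls in each stratum. It had 63.7, 85.2 and 103 FPKM (lowest, median, highest) in deleted livers, against 95.2, 121 and 137 FPKM in controls, and 8 of 12 deleted livers lay below every control. Its average log2 change was -0.49 ± 0.052, adjusted p = 6.43e-06, and in the strata it was -0.70 acute fasted, -0.37 acute refed, -0.50 constitutive fasted and -0.37 constitutive refed. Pck1, the enzyme of the first committed step of gluconeogenesis (chromosome 2, 173153073 to 173159253), had 340.2, 717 and 1214 FPKM in deleted livers, against 775, 1068 and 1252 FPKM in controls. It fell on average (-0.57 ± 0.14, adjusted p = 0.0285), with 7 of 12 deleted livers below every control, and the other 5 within the control range, among them KO fasted 3 and KO refed 3 at the top. Ppargc1a, the coactivator PGC-1 alpha, had medians of 1.02 against 1.77 FPKM in deleted and control livers and fell (-0.39 ± 0.087, adjusted p = 0.015). Its log2 change was -0.60 in the acute model and -0.18 in the constitutive model, where it did not pass alone (adjusted p = 0.461), and the average did not pass without the 4 deeper acute libraries (0.096). Klf15, a fasting-induced regulator of amino acid use, had medians of 59.2 against 75.9 FPKM (-0.38 ± 0.10, adjusted p = 0.0425), and its log2 change was -0.90 in acute fasted and -0.067 in constitutive refed livers. Got1, the cytosolic aspartate aminotransferase, had medians of 107 against 144 FPKM (-0.46 ± 0.12, adjusted p = 0.0458).

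G6pc, which encodes the catalytic part of glucose-6-phosphatase (chromosome 11, 101367730 to 101377903), did not pass in the average (-0.71 ± 0.21, adjusted p = 0.0803). It had 48.96, 139.6 and 169.6 FPKM in deleted livers, against 73.7, 183 and 362 FPKM in controls. The log2 changes were -1.57 acute fasted, -0.056 acute refed, -0.87 constitutive fasted and -0.33 constitutive refed. It passed in fasted livers alone (adjusted p = 0.0267), with a separate mean for each of the 8 groups (0.04255), and without GFP refed 1 (0.0318) or Cre refed 3 (0.0472) of the acute model or WT refed 2 of the constitutive model (0.0318). Irs2, an insulin receptor substrate and FoxO target, did not pass (-0.22 ± 0.13, adjusted p = 0.464), and its strata had both signs, from -0.88 in acute fasted to 0.30 in acute refed livers. Of 15 tested genes of gluconeogenesis, 4 were called lower and none higher, 14 lay below 0, and the median change was -0.13. Over all genes tested 2.77% were called, 1.89% lower and 0.88% higher, and the median was 0.0022; counts of the other lists stand against the same shares. Of 23 tested known FoxO targets, 5 were lower (Pck1, Igfbp1, Ppargc1a, Slc37a4 and Klf15) and none higher, with a median of -0.13. The insulin receptor signalling list, which holds the receptor Insr (-0.16 ± 0.053, adjusted p = 0.126), had 0 of 19 genes called and a median of -0.041. With 1 library left out, calls were lost in 5 of 24 fits for Pck1, 17 for Klf15 and 20 for Got1, with adjusted p up to 0.0565, 0.0798 and 0.0856, the highest without Cre fasted 2, Cre fasted 1 and GFP fasted 3 of the acute model. Without a filter on low genes these 3 calls were lost too (0.0561, 0.0792 and 0.0858).

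Promoter sequence is shown for the named genes called lower in which the upstream window holds forkhead-type letters. Exact matches of GTAAACA and of CAAAACA were sought on both strands in the 250 bases before the RefSeq gene start (GRCm38.p6, the assembly of mm10). A window was matched for 8250 of 10590 genes with a single locus. Of these windows 2.33% held GTAAACA, 3.84% held CAAAACA and 6.06% held either. Of the 296 called genes 219 (74.0%) had a window, against 77.9% of all genes with a single locus, and no share with a match is given for them. Windows of 55 named called genes were searched, and 5 held a match of either, 4 of genes that were lower and 1 of a gene that was higher. Whether this count differs from the share over all windows was not tested. Igfbp1 (chr11:7197537-7197786, + strand), Nlrp12 (chr7:3249741-3249990, - strand) and Sult1d1 (chr5:87569007-87569256, - strand) held CAAAACA, and Rbp4 (chr19:38125322-38125571, - strand) held GTAAACA. They read, 5′ to 3′ along the gene with the match in capitals and, for Nlrp12, as the reverse complement:
Igfbp1: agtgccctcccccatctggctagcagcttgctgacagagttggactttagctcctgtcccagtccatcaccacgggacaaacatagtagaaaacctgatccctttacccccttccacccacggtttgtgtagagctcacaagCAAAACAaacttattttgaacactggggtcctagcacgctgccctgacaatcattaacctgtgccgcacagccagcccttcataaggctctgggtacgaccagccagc
Nlrp12: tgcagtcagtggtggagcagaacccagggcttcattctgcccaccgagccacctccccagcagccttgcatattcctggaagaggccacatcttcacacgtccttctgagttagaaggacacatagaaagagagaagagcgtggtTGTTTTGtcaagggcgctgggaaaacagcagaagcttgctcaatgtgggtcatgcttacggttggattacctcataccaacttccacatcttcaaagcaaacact
Rbp4: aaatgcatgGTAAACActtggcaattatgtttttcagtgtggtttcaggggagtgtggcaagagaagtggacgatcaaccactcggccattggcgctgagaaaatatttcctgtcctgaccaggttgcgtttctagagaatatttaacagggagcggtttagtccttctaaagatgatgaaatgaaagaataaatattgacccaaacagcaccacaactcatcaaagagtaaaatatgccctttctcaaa
Sult1d1: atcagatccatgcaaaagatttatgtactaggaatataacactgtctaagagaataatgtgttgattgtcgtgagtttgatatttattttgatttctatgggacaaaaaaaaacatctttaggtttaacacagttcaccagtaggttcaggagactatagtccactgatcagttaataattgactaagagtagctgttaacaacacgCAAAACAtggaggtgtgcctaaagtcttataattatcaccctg
The last base of the match lay 102 bases before the start in Igfbp1, 99 in Nlrp12, 235 in Rbp4 and 37 in Sult1d1. The window of Cpn1, the gene that was higher in deleted livers, held GTAAACA. A match is a run of letters and not a measured binding site.

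In glucose use and glycogen, Ppp1r3g, Pfkfb3 and Ugp2 were lower in deleted livers. Ppp1r3g, a glycogen-targeting subunit of protein phosphatase 1, had 0.111, 1.05 and 2.07 FPKM (lowest, median, highest) in deleted livers, against 0.564, 2.67 and 5.897 FPKM in controls (-0.93 ± 0.17, adjusted p = 0.00307). Pfkfb3, which makes the glycolytic activator fructose-2,6-bisphosphate, had medians of 6.998 against 9.53 FPKM (-0.65 ± 0.17, adjusted p = 0.0333). Ugp2, which makes the UDP-glucose used for glycogen, had medians of 103 against 129 FPKM (-0.30 ± 0.079, adjusted p = 0.0401). Of 19 genes of glucose uptake, glycolysis and glycogen reported here, these 3 were called lower, 16 lay below 0 and the median was -0.17. The calls of Ugp2 and Pfkfb3 were lost in 18 and 8 of the 24 fits that left out 1 library, with adjusted p up to 0.0779 (without Cre fasted 1, acute) and 0.0638 (without GFP fasted 3, acute), and without the filter.

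In the IGF axis, the binding protein genes Igfbp1 and Igfbp2 were lower and Igf1 and Igfals were higher in deleted livers. Igfbp2 (chromosome 1, 72824480 to 72852471), which binds IGFs in plasma, had 98.9, 148 and 222 FPKM in deleted livers, against 201, 347 and 431 FPKM in controls. It fell in every stratum (-0.98 acute fasted, -1.24 acute refed, -1.26 constitutive fasted and -1.44 constitutive refed), with an average of -1.23 ± 0.12 (adjusted p = 9.96e-07), and 11 of 12 deleted livers lay below every control. Igfbp1 (chromosome 11, 7197787 to 7202546), an insulin-suppressed binding protein whose promoter is printed above, had 2.78, 17.98 and 82.2 FPKM in deleted livers, against 5.93, 46.95 and 85.5 FPKM in controls. The fall (-1.01 ± 0.27, adjusted p = 0.0478) left no overlap within the constitutive strata. Fasted KO and WT livers had 21.4 ± 5.14 against 59.1 ± 8.97 FPKM (SD, n = 3 each), and refed KO and WT livers had 17.1 ± 1.56 against 45.6 ± 13.9 FPKM. In acute livers the groups overlapped, and the acute model alone did not pass (log2 -0.63, adjusted p = 0.623). Fasted Cre and GFP livers had 52.7 ± 31.7 against 69.1 ± 22.4 FPKM, and refed Cre and GFP livers had 8.299 ± 4.78 against 17.4 ± 18.2 FPKM. Igf1, the growth factor made by the liver (chromosome 10, 87859056 to 87937047), was higher, at 122, 152 and 172 FPKM, against 110.2, 126 and 142 FPKM in controls (0.26 ± 0.052, adjusted p = 0.00517), and 10 of 12 deleted livers lay above every control. Igfals, which stabilises IGFs in plasma, was higher too, with medians of 59.02 against 48.4 FPKM (0.27 ± 0.062, adjusted p = 0.0184). Stat5b, a mediator of growth hormone signalling that drives both genes, was lower (-0.19 ± 0.048, adjusted p = 0.0349). The list had 2 higher and 3 lower of 11 genes, 7 above 0 and a median of 0.12. The call of Igfbp1 was lost in 18 of 24 fits that left out 1 library (adjusted p up to 0.0918, without Cre fasted 1 of the acute model), with a pseudocount of 0.1 (0.0527), with 8 group means (0.0556) and without the filter (0.0919), and that of Stat5b in 11 fits (up to 0.0691, without Cre fasted 2 of the acute model), with array weights (0.0691) and without the filter (0.0537).

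Other secreted products of the liver moved both ways. Rbp4, the plasma carrier of retinol (chromosome 19, 38116620 to 38125321), had 2481, 2929 and 3392 FPKM in deleted livers, against 3137, 3593 and 3935 FPKM in controls (-0.26 ± 0.037, adjusted p = 0.000213), and was lower in every library of every stratum than that stratum's controls. Inhbe and Inhbc, which encode activin subunits made by hepatocytes, were higher, with medians of 33.6 against 21.04 FPKM (0.52 ± 0.13, adjusted p = 0.03) and 31.4 against 26.5 FPKM (0.31 ± 0.077, adjusted p = 0.0319) in deleted and control livers. Angptl4, an inhibitor of lipoprotein lipase, was lower (-0.48 ± 0.12, adjusted p = 0.0349). How that call holds with 1 library left out was not examined. Fgf21, a fasting hormone, did not pass (0.58 ± 0.18, adjusted p = 0.0851). Its levels in acute fasted livers were 3.87, 3.35 and 2.48 FPKM in Cre livers, against 0.453, 0.408 and 0.128 FPKM in GFP livers, a log2 change of 1.67, against -0.045 in acute refed livers. In the constitutive strata it changed by 0.54 fasted and 0.17 refed. The hepatokine list had 2 higher and 4 lower of 22 genes and a median of 0.058. The activin calls were lost without the filter (adjusted p = 0.0571 for Inhbe and 0.0561 for Inhbc), without the 4 deeper acute libraries (0.114 and 0.0624) and in 10 (Inhbe) and 8 (Inhbc) of 24 fits that left out 1 library, with adjusted p up to 0.0583 (without GFP fasted 3, acute) and 0.0626 (without Cre fasted 2, acute), and Fgf21 passed in fasted livers alone (0.0463), with 8 group means (0.00763), and without GFP refed 1 of the acute (0.0465) or KO refed 3 of the constitutive model (0.0423).

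Of 25 genes of lipoprotein handling, 5 were called lower and none higher, where 1.89% of all genes tested were lower and 0.88% higher. Scarb1, which encodes SR-BI, the receptor that takes up cholesterol from HDL (chromosome 5, 125277087 to 125341094), had 28.1, 31.4 and 38.4 FPKM in deleted livers, against 41.9, 48.7 and 59.4 FPKM in controls, without overlap over 24 libraries. Its log2 changes were close to each other in the strata (-0.58 acute fasted, -0.44 acute refed, -0.56 constitutive fasted and -0.57 constitutive refed), with an average of -0.54 ± 0.05, adjusted p = 9.12e-07. Apom, an HDL apolipoprotein that carries sphingosine-1-phosphate (chromosome 17, 35128997 to 35131752), had 196, 232 and 295 FPKM in deleted livers, against 256, 309.8 and 428 FPKM in controls (-0.46 ± 0.063, adjusted p = 0.00015). Lipc, hepatic lipase, had medians of 60.3 against 76.9 FPKM (-0.32 ± 0.047, adjusted p = 0.000317), and Lpin2, a phosphatidate phosphatase of triglyceride synthesis, had medians of 49.2 against 63.2 FPKM (-0.48 ± 0.09, adjusted p = 0.00358). Apoa1, the main HDL apolipoprotein, had medians of 6673 against 7980.3 FPKM (-0.20 ± 0.052, adjusted p = 0.0349). Mttp, the FoxO1 target that loads lipid onto apolipoprotein B, did not pass (-0.087 ± 0.056, adjusted p = 0.504), nor did Apoc3 (-0.13 ± 0.066, adjusted p = 0.344). The median over the 25 genes was -0.081. The call of Apoa1 was lost in 12 of 24 fits that left out 1 library (adjusted p up to 0.0673, without GFP fasted 3 of the acute model), without the filter (0.187) and with median-of-ratios scaling (0.0509), and the remaining 4 held in all 24.

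Among genes of bile acid synthesis, Cyp8b1, Cyp27a1 and Slc27a5 were lower, and Cyp7a1 did not pass. Cyp8b1, the sterol 12-alpha-hydroxylase that sets the share of cholic acid (chromosome 9, 121914356 to 121916305), had 56.4, 93.01 and 118 FPKM in deleted livers, against 67.1, 155 and 322 FPKM in controls (-0.73 ± 0.15, adjusted p = 0.00846). Fasted KO and WT livers had 109.5 ± 13.04 against 229 ± 80.4 FPKM (SD, n = 3 each; log2 -1.01), and refed KO and WT livers had 87.1 ± 23.4 against 189.7 ± 40.4 FPKM (log2 -1.13). In acute livers the changes were -0.37 and -0.41, and the difference between the models did not pass the test. Cyp27a1, the sterol 27-hydroxylase of the alternative pathway (chromosome 1, 74713574 to 74737890), had 182, 191 and 242 FPKM in deleted livers, against 207, 258 and 327 FPKM in controls (-0.39 ± 0.054, adjusted p = 0.000153). Slc27a5, the bile acid-CoA ligase, had medians of 328 against 399 FPKM (-0.26 ± 0.053, adjusted p = 0.00615). Cyp7a1, the rate-limiting enzyme of the classic pathway, had 32.2, 42.9 and 103 FPKM in deleted livers, against 24.03, 64.9 and 156 FPKM in controls, an average change of -0.0081 ± 0.14 (adjusted p = 0.988) in which the error is far larger than the change. The list had 3 lower and none higher of 18 genes, 13 below 0 and a median of -0.093.

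Of the genes of fatty acid synthesis 1 passed the test, and all lay above 0. Me1, the malic enzyme that supplies NADPH for fatty acid synthesis, had 63.1, 71.6 and 88.1 FPKM in deleted livers, against 42.2, 58.6 and 77.3 FPKM in controls (0.33 ± 0.084, adjusted p = 0.0338), and was the 1 called gene of 19 in the list of fatty acid synthesis and desaturation. All 19 members lay above 0, with a median of 0.11. Fasn, fatty acid synthase (0.16 ± 0.17, adjusted p = 0.707), and Scd1, the stearoyl-CoA desaturase (0.27 ± 0.13, adjusted p = 0.303), did not pass, nor did Srebf1, their insulin-responsive regulator (0.20 ± 0.14, adjusted p = 0.559). Cholesterol synthesis had 0 of 20 called, 17 above 0 and a median of 0.073. Members of such lists share regulators and their values are not independent, so the counts of signs carry no test. In the fatty acid oxidation and PPAR-alpha list, 4 of 29 genes were lower and 1 was higher, with a median of -0.0069. The lower ones were the omega-hydroxylases Cyp4a10 (medians 167 against 257 FPKM; -0.59 ± 0.14, adjusted p = 0.0242), Cyp4a31 (-0.53 ± 0.11, adjusted p = 0.0103) and Cyp4a32 (-0.55 ± 0.093, adjusted p = 0.00132), and Angptl4. Cyp4a10 changed by -0.97 in the acute and -0.22 in the constitutive model, where it did not pass alone (adjusted p = 0.647), and its average did not pass without the 4 deeper acute libraries (0.108). Cpt2, the inner carnitine palmitoyltransferase of mitochondria, was slightly higher, with medians of 66.8 against 61.9 FPKM (0.14 ± 0.035, adjusted p = 0.0241). The 3 Cyp4a genes are close copies of each other, so reads may be split between them, and the call of Me1 was lost in 13 of 24 fits that left out 1 library (up to 0.0662, without Cre fasted 2 of the acute model) and without the filter (0.0596).

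**Figure D4:**
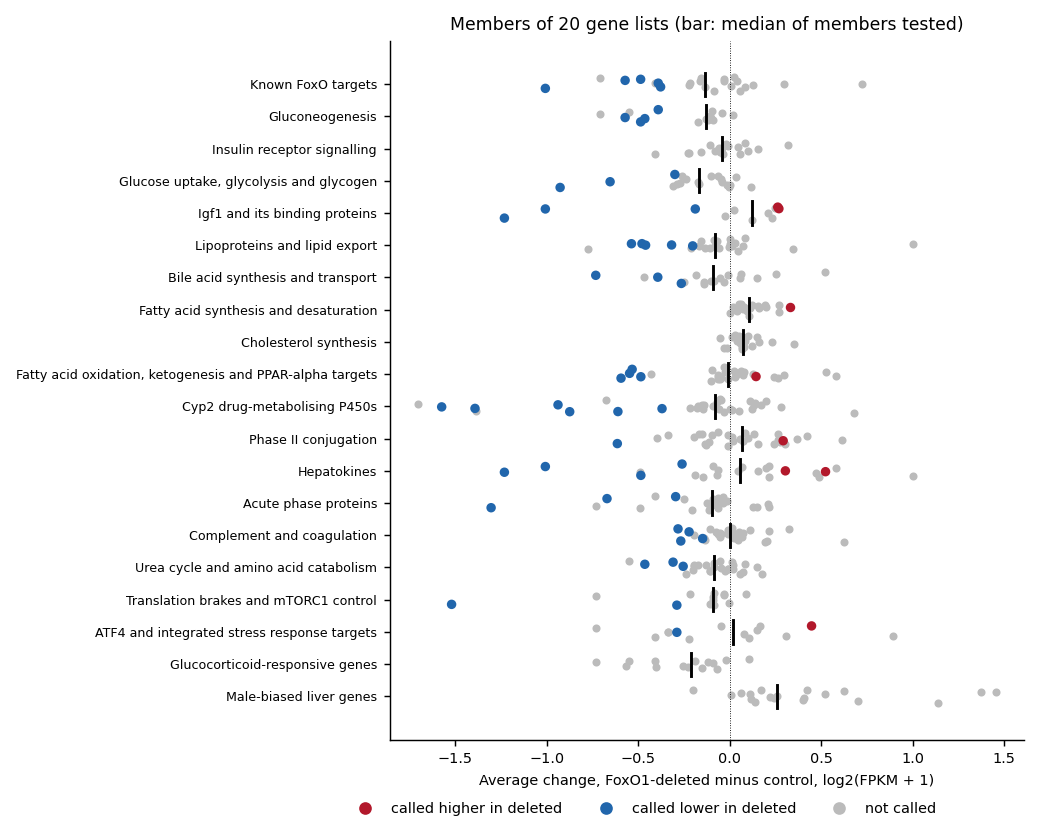
Average change, deleted minus control, in log2(FPKM + 1), of each tested member of 20 gene lists, with called members in red (higher) or blue (lower) and a bar at the list median. Called members of the lipoprotein, gluconeogenesis and Cyp2 lists are all lower, the 19 members of fatty acid synthesis all lie above 0, and glucocorticoid-responsive and male-biased genes spread widely with no call.

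Drug and steroid metabolism held several of the largest falls. Cyp2b10, the classic target of the receptor CAR (chromosome 7, 25897664 to 25926624), had 0.532, 2.601 and 4.97 FPKM in deleted livers, against 2.66, 10.03 and 19.2 FPKM in controls (-1.57 ± 0.25, adjusted p = 0.00056). Its log2 change was -2.26 in the acute and -0.89 in the constitutive model, where it did not pass limma's test alone (adjusted p = 0.286). Cyp2c37, an arachidonic acid hydroxylase of mouse liver (chromosome 19, 39992424 to 40012243), had 27.7, 52.8 and 76.2 FPKM in deleted livers, against 72.7, 126 and 221 FPKM in controls, and 11 of 12 deleted livers lay below every control (-1.39 ± 0.14, adjusted p = 3.84e-06). Its neighbours on chromosome 19 followed: Cyp2c54 had medians of 103 against 189.5 FPKM (-0.87 ± 0.11, adjusted p = 3.46e-05) and Cyp2c50 had medians of 249 against 381 FPKM (-0.61 ± 0.10, adjusted p = 0.000827). Cyp2c38 changed by -1.61 in the acute and -0.27 in the constitutive model (-0.94 ± 0.20, adjusted p = 0.0104 on average). Cyp2e1, the ethanol-inducible P450, had medians of 4141 against 5233 FPKM (-0.37 ± 0.069, adjusted p = 0.00338). In all, 6 of 32 Cyp2 genes were lower and none was higher, with a median of -0.080.

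Hsd17b6, an oxidoreductase that acts on androgens and retinol (chromosome 10, 127990936 to 128007508), had 48.96, 81.1 and 102 FPKM in deleted livers, against 92.9, 169.7 and 254 FPKM in controls (-1.11 ± 0.13, adjusted p = 3.12e-05). Of its deleted livers, 11 of 12 lay below every control, and the strata changed by -1.40 acute fasted, -1.13 acute refed, -0.73 constitutive fasted and -1.19 constitutive refed. Of 32 phase II genes, the sulfotransferase Sult1d1 was lower (-0.61 ± 0.10, adjusted p = 0.00132) and the glutathione transferase Gstm2 was higher (0.29 ± 0.075, adjusted p = 0.0349). The Cyp2c and Cyp2b genes belong to families of near-identical copies, and settings for reads that fit several copies are not given in the sources used here. The call of Gstm2 was lost in 12 of 24 fits that left out 1 library (up to 0.0682, without Cre fasted 1 of the acute model), with array weights (0.061) and without the filter (0.0613).

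Several plasma proteins of inflammation and clotting were lower. Orm3, an acute-phase orosomucoid, had 0.342, 1.01 and 4.54 FPKM in deleted livers, against 1.52, 3.62 and 35.3 FPKM in controls (-1.30 ± 0.30, adjusted p = 0.0201). Acute refed replicates 1, 2 and 3 had 0.5797, 0.523 and 0.697 FPKM in Cre livers, against 3.17, 35.3 and 3.23 FPKM in GFP livers, so that the highest control value came from GFP refed 2. Serpina3n, an acute-phase antiproteinase (chromosome 12, 104406708 to 104414329), had 99.1, 116 and 177 FPKM in deleted livers, against 161, 179.6 and 258 FPKM in controls (-0.67 ± 0.10, adjusted p = 0.000255), with close values in the strata (-0.65 acute fasted, -0.69 acute refed, -0.60 constitutive fasted and -0.75 constitutive refed). Cp, ceruloplasmin, had medians of 204 against 233 FPKM (-0.29 ± 0.06, adjusted p = 0.00679). These were 3 of 25 acute phase genes, with none higher, 21 below 0 and a median of -0.095. In complement and coagulation, 4 of 32 genes were lower: Kng1, the kininogen (medians 929 against 1096 FPKM; -0.27 ± 0.043, adjusted p = 0.000777), Serpinf2, the plasmin inhibitor (-0.22 ± 0.049, adjusted p = 0.0135), Plg, plasminogen (-0.15 ± 0.035, adjusted p = 0.0212), and Pros1, protein S (-0.28 ± 0.076, adjusted p = 0.0473). That list's median was 0.0028. Orm3 and Serpina3n have near-identical paralogs, and the call of Pros1 was lost in 18 of 24 fits that left out 1 library (up to 0.0881, without KO fasted 2 of the constitutive model) and without the filter (0.0826).

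Among genes of translation control and amino acid metabolism, Eif4ebp3 and Sesn2 were lower and Cars was higher in deleted livers. Eif4ebp3, a repressor of cap-dependent translation that binds eIF4E (chromosome 18, 36664060 to 36666324), had 10.1, 16.7 and 46.8 FPKM in deleted livers, against 29.7, 54.8 and 108 FPKM in controls (-1.52 ± 0.19, adjusted p = 4.61e-05). It fell by more than 1 on the log2 scale in each stratum (-1.75 acute fasted, -1.59 acute refed, -1.57 constitutive fasted and -1.16 constitutive refed), and 10 of 12 deleted livers lay below every control, but the groups overlapped in constitutive refed livers. Sesn2, a leucine sensor that restrains mTORC1, was lower as well, with medians of 1.12 against 1.44 FPKM (-0.29 ± 0.061, adjusted p = 0.0103). Of 13 tested translation brakes, these 2 were called lower and none higher, 12 lay below 0 and the median was -0.091. Cars, the cysteinyl-tRNA synthetase (chromosome 7, 143557230 to 143600090), was higher in all 12 deleted livers than in any control, at 8.41, 9.83 and 12.97 FPKM, against 5.72, 7.18 and 8.08 FPKM (0.45 ± 0.064, adjusted p = 0.000219). Among 27 urea cycle and amino acid genes, Asl, the argininosuccinate lyase (-0.31 ± 0.076, adjusted p = 0.027), Glul, glutamine synthetase (-0.25 ± 0.06, adjusted p = 0.0229), and Got1 were lower, with a list median of -0.083. The call of Asl was lost in 6 of 24 fits that left out 1 library (up to 0.0561, without GFP fasted 3 of the acute model) and without the filter (0.0505).

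Among the remaining genes with large falls, Nlrp12, a sensor protein that dampens inflammatory signalling (chromosome 7, 3221510 to 3249740), had 1.93, 4.42 and 6.47 FPKM in deleted livers, against 5.81, 9.21 and 14.3 FPKM in controls (-0.97 ± 0.13, adjusted p = 0.00011). Rgs16, a G protein regulator that follows feeding time in mouse liver, had 2.64, 22.1 and 49.5 FPKM, against 15.9, 51.4 and 88.01 FPKM in controls (-1.17 ± 0.27, adjusted p = 0.0201). Serpinb1a, an inhibitor of neutrophil proteases that hepatocytes also release, had 0.293, 0.6604 and 1.15 FPKM, against 0.7502, 2.56 and 4.87 FPKM in controls (-1.13 ± 0.15, adjusted p = 0.000135). Its median in deleted livers lay below the filter's 1 FPKM, so Serpinb1a was tested mostly because of its control levels. That call describes these values without adding support. Gpcpd1, a glycerophosphocholine phosphodiesterase, had 16.1, 23.6 and 38.99 FPKM, against 30.7, 52.4 and 75.5 FPKM in controls (-0.97 ± 0.15, adjusted p = 0.000338). Each of these 4 genes was lower in each stratum and kept its call in all 24 fits that left out 1 library. Rgs16 did not pass without the 4 deeper acute libraries (adjusted p = 0.0797), nor in the acute (0.215) or the constitutive model alone (0.144).

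Among genes with large rises, Cml5 and Nat8 had the largest average change. The paired N-acetyltransferase genes Cml5 and Nat8 on chromosome 6 had 0.825, 7.43 and 17.1 FPKM and 6.48, 12.8 and 23.6 FPKM in deleted livers, against 0.129, 2.09 and 8.19 FPKM and 2.998, 6.39 and 10.1 FPKM in controls (1.24 ± 0.33, adjusted p = 0.0427; 0.87 ± 0.16, adjusted p = 0.00358). Cml5 had a log2 change of 2.39 in acute refed and 0.32 in constitutive refed livers. Csad, which makes hypotaurine for taurine synthesis, had medians of 114 against 86.97 FPKM (0.72 ± 0.17, adjusted p = 0.0245). Col5a3 (chromosome 9, 20770050 to 20815034), the gene called higher in each model alone, had 4.98, 8.03 and 13.5 FPKM, against 2.23, 5.08 and 8.45 FPKM in controls (0.67 ± 0.10, adjusted p = 0.000322), and was higher in each stratum (0.76 acute fasted, 0.82 acute refed, 0.59 constitutive fasted and 0.48 constitutive refed). The beta-tubulins Tubb2a and Tubb2b had medians of 17.01 against 10.7 FPKM (0.70 ± 0.14, adjusted p = 0.00549) and 4.002 against 2.63 FPKM (0.53 ± 0.12, adjusted p = 0.0205).

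Clstn3, a calsyntenin, had medians of 2.74 against 1.53 FPKM in deleted and control livers (0.59 ± 0.093, adjusted p = 0.00056), and Treh, trehalase, had 1.57 against 0.616 FPKM (0.61 ± 0.13, adjusted p = 0.00961). The control median of Treh lay below the filter's 1 FPKM, so Treh was tested mostly because of its levels in deleted livers. That call describes these values without adding support. Phospho1, a phosphoethanolamine and phosphocholine phosphatase, had 4.14 against 2.22 FPKM (0.60 ± 0.14, adjusted p = 0.0233). Paqr9, a membrane protein of the adiponectin receptor family, was at 62.6 against 41.4 FPKM (0.54 ± 0.10, adjusted p = 0.00277). Keg1, a glycine N-acyltransferase-like gene, had medians of 194 against 129 FPKM (0.56 ± 0.14, adjusted p = 0.0349), and the pseudogene Ces2d-ps had 12.8 against 7.37 FPKM (0.64 ± 0.13, adjusted p = 0.00846). Wdr45, an autophagy protein, and Cpn1, a subunit of carboxypeptidase N, rose little but evenly, with 9 and 10 of 12 deleted livers above every control (0.24 ± 0.037, adjusted p = 0.000446; 0.19 ± 0.034, adjusted p = 0.00248). Cml5 and Nat8, Tubb2a and Tubb2b, and Ces2d-ps and its parent family are close copies whose reads may be shared. All 3 of Cml5, Keg1 and Csad lost the call without the filter (adjusted p = 0.0855, 0.0663 and 0.0506). Calls were also lost in 16 (Cml5), 13 (Keg1) and 1 (Csad) of 24 fits that left out 1 library, with adjusted p up to 0.0827 (without Cre fasted 2, acute), 0.0689 (without Cre fasted 2, acute) and 0.0517 (without GFP fasted 3, acute).

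**Figure D5:**
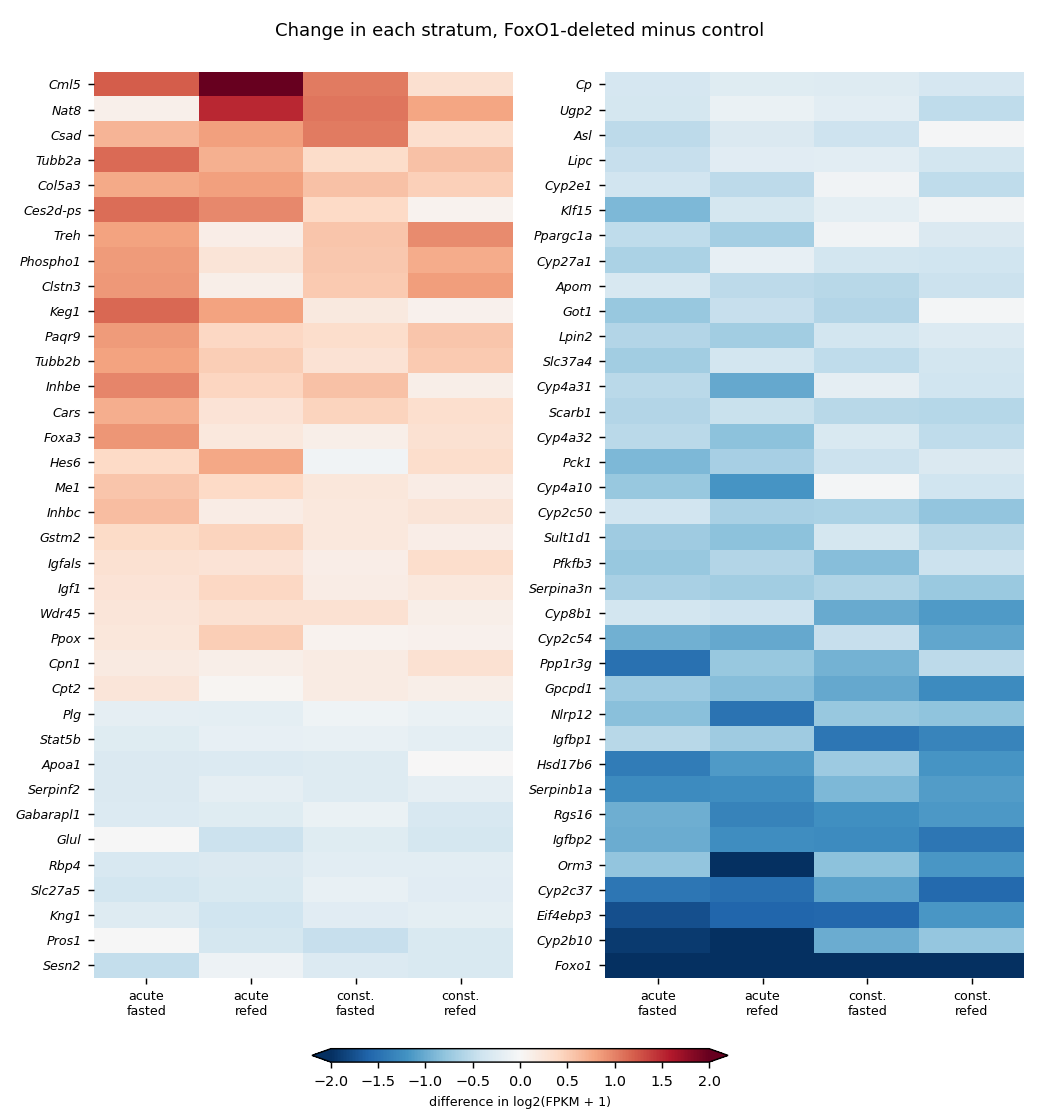
Change in log2(FPKM + 1), deleted minus control, of 72 named genes (rows, highest average change top left) in the 4 strata (columns), with red for higher and blue for lower in deleted livers and the scale ending at 2 and -2. The genes in the lower right, such as Foxo1, Eif4ebp3, Cyp2c37 and Igfbp2, are blue in each stratum, while Cml5, Keg1 and Ces2d-ps are darkest in the acute strata.

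Several gene lists had few or no calls. Among liver transcription factors, Foxa3 (0.38 ± 0.10, adjusted p = 0.0349) and Hes6 (0.36 ± 0.10, adjusted p = 0.0497) were higher and none of 17 was lower, and among 10 heme synthesis genes Ppox, protoporphyrinogen oxidase, was higher (0.22 ± 0.056, adjusted p = 0.0331). Of 19 autophagy genes, Gabarapl1 was lower (-0.24 ± 0.061, adjusted p = 0.0301). No gene was called among 12 heat shock chaperones, 20 chaperones of the endoplasmic reticulum, 15 immediate early genes, 17 clock genes, 14 NRF2 genes, 19 ribosome biogenesis factors, 15 growth arrest and cell cycle genes, 21 metabolic nuclear receptors or 23 interferon-stimulated genes, with list medians between -0.092 and 0.12. Pericentral and periportal genes had larger shares of calls. Each list had 3 members called lower and none higher, of 17 (17.65%) and 15 (20%) tested, where 1.89% of all genes tested were lower. The calls of Foxa3, Hes6, Ppox and Gabarapl1 were lost without the filter (adjusted p = 0.0636, 0.0892, 0.0536 and 0.0505) and in 14, 20, 16 and 7 of 24 fits that left out 1 library, with adjusted p up to 0.0689 (without Cre fasted 2, acute), 0.0912 (without GFP fasted 1, acute), 0.06 (without Cre fasted 3, acute) and 0.0597 (without Cre fasted 2, acute).

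Among the 72 named genes called in the average, 21 lost the call when some 1 library was left out, as given beside each, and the same 21 lost it without the filter on low values, with adjusted p from 0.0505 to 0.187. With array weights 6 of them lost it (0.0552 to 0.0739): Klf15, Stat5b, Gstm2, Foxa3, Hes6 and Ppox. Without the 4 deeper acute libraries, 30 named genes lost the call (0.0583 to 0.221). Of these, 20 were among the 21, in which Pros1 was the exception. The other 10 were Ces2d-ps, Treh, Phospho1, Tubb2b, Orm3, Rgs16, Ppargc1a, Cpt2, Cyp4a10 and Plg. Genes named after their values were seen, such as Angptl4 and Cyp2c38, are outside the 72, and their calls were not followed in these fits.

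Markers of other cell types gave no call. Summed over 13 endothelial genes the level was 27.7 to 94.3 FPKM in deleted livers and 43.6 to 103.6 FPKM in controls, and over 12 macrophage genes it was 63.8 to 361 FPKM and 69.3 to 216 FPKM. The 13 stellate and fibroblast genes summed to 69.3 to 177.6 FPKM in deleted livers and 78.2 to 178.5 FPKM in controls, and Col5a3 is expressed by such cells too. Erythroid genes ranged from 29.7 to 526 FPKM in deleted livers and from 27.1 to 521 FPKM in controls, with a median change of 0.43 over 6 genes. Endothelial markers had a median change of -0.33 in the acute and 0.23 in the constitutive model. The part of these cells in the results was not tested.

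Where the deletion effect could differ between models or feeding states, no gene passed. Of 10682 genes, 0 (0%) differed between the acute and constitutive effect after adjustment in limma, and 1087 (10.2%) did at an unadjusted p below 0.05. That count of 0 depended on single acute libraries: it was 34 without GFP refed 1, 23 without GFP fasted 2, and 1 without Cre fasted 1 or GFP refed 2. Of the same genes, 0 (0%) differed in the deletion effect between refed and fasted livers, with 420 (3.93%) at an unadjusted p below 0.05. The gene nearest to a call was Vnn1, the pantetheinase, whose effect was 0.38 in acute fasted and -1.02 in acute refed livers, a feeding difference of -0.80 averaged over models (adjusted p = 0.0562).

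Some lists with no member called had medians that were opposite in the models, or away from 0 in the acute model alone. The 19 male-biased genes tested had a median change of 0.83 in the acute and -0.085 in the constitutive model. The 13 female-biased genes had medians of -0.52 and 0.31. The 14 glucocorticoid-responsive genes had medians of -0.48 and 0.0018, and Per1 (-0.80 and 0.0001) and Fkbp5 (-0.80 and 0.30) had that pattern. Whether the medians differ between models beyond error was not tested.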

How the data were processed

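Liver RNA of 24 samples in 8 groups of 3 was sequenced with a stranded mRNA kit, per the labels' protocols. The authors deposited 1 FPKM value with confidence limits per gene locus and sample. HISAT2, Cufflinks, Cuffdiff and build mm10 are named, without versions, per the submitters' processing notes, and their settings, strand included, are not given in the sources used here. FPKM are not counts, and no count test was run. Read as 2 SD of a count, the limits imply 6292733 to 15719470 fragments per library. Of the implied numbers below 50, 50.2% to 54.9% were whole to within 0.05 (10% by chance), so whole counts were not recovered. Intervals cover counting error only. Of 23746 loci, 14 that were marked as failed were left out.

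Values were tested as log2(FPKM + 1) over genes with at least 1 FPKM in at least 3 libraries, by limma 3.58.1 in R 4.3.3 (functions lmFit, contrasts.fit and eBayes, this last with a trend): 4 strata plus 1 deletion term. Differences between models or feeding states came from 8 group means, and each model was also fitted alone. P-values are two-sided, adjusted by Benjamini and Hochberg over the genes kept, with calls below 0.05. Errors of log2 changes are SE. The fit was tested on simulated data.

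Foxo1, the 12 largest and the 5 most certain calls in each direction, up to 4 called members of each of 47 lists, 10 metabolic genes and the leading differences were named by rule, without clones and small RNAs. Of the leading differences between models or feeding states, only Vnn1 is described as such. Of 829 list entries 824 were in the files (11 under older symbols) and 745 were tested. Results for 2 further list genes are not reported here, and those genes were left out of list counts but not of the fits. Members, lists and rule were chosen with earlier results of these data known. Foxo3, Foxo4, Insr, Mttp, Apoc3, Fasn, Scd1, Per1, Fkbp5, Angptl4, Cyp2c38, Slc16a10 and Mug1 were named after their values were seen.

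Alternatives were a pseudocount of 0.1, no filter, a filter of 12 libraries, median-of-ratios scaling, 8 group means, array weights, a block for replicate numbers, a threshold of 0.01, no deeper acute libraries, each model or feeding state alone, and each library left out in turn. Figures were drawn with matplotlib 3.10.9 in Python 3.11.15 with pandas 2.3.3.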

Additional observations from a re-analysis of the deposited data

How the results depend on the processing

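The 296 calls of the average effect became 293 with a pseudocount of 0.1, 220 without a filter, 295 with a stricter filter, 334 with median-of-ratios scaling (median of all genes 0.0043 against 0.0022), 335 with 8 group means and 316 with array weights. They became 108 at an adjusted p of 0.01, 159 without the 4 deeper acute libraries (143 of them among the 296), 148 in the acute model alone, 69 in the constitutive model alone, 58 in fasted and 18 in refed livers alone, and 198 to 350 with 1 library left out; the last settings hold fewer libraries. Why fits of part of the libraries differed in their number of calls was not tested. The 18 genes called in each model became 6 without a filter, 30 with array weights, 2 at 0.01, 3 without the deeper libraries and 10 to 22 with 1 library left out. The difference between models gave 1 gene with array weights, 1 without the deeper libraries and 0 to 34 with 1 library left out. The difference between feeding states gave 1 with the stricter filter and 0 to 1 with 1 library left out.

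Same-numbered deleted and control libraries did not deviate together (12 correlations between -0.33 and 0.21, and 7 of 24 libraries correlated best with their own number). With 3 libraries per group, these values cannot tell whether some pairs share more than a number. With the replicate number as a block, the average effect gave 189 calls (173 among the 296), the genes called in each model 8, the difference between feeding states 1 and that between models 0.

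Of 77 named genes with an average effect, 72 were called, and 51 of these kept the call in all 24 fits that left out 1 library. Srebf1 changed sign to -0.053 in fasted livers alone. Cyp7a1, near 0 in the average, changed sign with array weights (0.0052), in the acute model alone (0.093), in fasted livers alone (0.19) and within a range of -0.062 to 0.072 with 1 library left out. None of these values passed the test. Depth is lowest in 8 acute libraries, where genes of few fragments are the least precise.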

Other observations

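Other gene groups were collected after the values were seen, so their counts describe the calls and carry no test. Calls of genes named only in this section were not followed in the fits that left out libraries. Of 30 tested receptors for cytokines, growth factors and hormones, 9 were lower in deleted livers and none was higher (median of the list -0.041). Lepr, the leptin receptor, had 0.111, 0.258 and 0.361 FPKM in deleted livers, against 0.297, 0.823 and 2.99 FPKM in controls (-0.62 ± 0.11, adjusted p = 0.00248), and 10 of 12 deleted livers lay below every control. All 12 deleted livers lay below the filter's 1 FPKM. Lepr was therefore tested only because of its control levels, and its call describes these values without adding support. Adrb3, the beta-3 adrenergic receptor, had medians of 0.925 against 2.45 FPKM (-0.78 ± 0.13, adjusted p = 0.000762). Il6ra, the interleukin-6 receptor, had medians of 7.97 against 11.1 FPKM (-0.46 ± 0.10, adjusted p = 0.0177), and Il17ra, the interleukin-17 receptor, had 3.41 against 4.098 FPKM (-0.20 ± 0.044, adjusted p = 0.0113). Met, the receptor of hepatocyte growth factor, had medians of 8.78 against 11.1 FPKM (-0.30 ± 0.074, adjusted p = 0.026), and Gfra1, a co-receptor of neurotrophic factors, had 28.8 against 36.1 FPKM (-0.36 ± 0.079, adjusted p = 0.0135). Tnfrsf1b, Agtr1a and Ifnar2 were lower by smaller amounts or with wider errors (-0.42, -0.29 and -0.14). Lepr shares its start region with another gene, so reads may be split.

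Of 43 lysosomal genes, 6 were lower and none higher, while the median over the list was -0.013. Npc1, which exports cholesterol from lysosomes, had medians of 21.2 against 28.8 FPKM in deleted and control livers (-0.35 ± 0.06, adjusted p = 0.00132), and the protease gene Ctsl had 212 against 249.9 FPKM (-0.21 ± 0.049, adjusted p = 0.0203). Of 20 cytosolic aminoacyl-tRNA synthetases, 19 lay above 0 and 3 were called higher: Cars, Mars (0.18 ± 0.043, adjusted p = 0.0203) and Lars (0.18 ± 0.047, adjusted p = 0.0386). All 11 tested tubulins lay above 0, with Tubb2a, Tubb2b and Tuba1a (0.28 ± 0.071, adjusted p = 0.0363) called and a list median of 0.23. Of 25 peroxisomal genes, 3 were higher and none lower: Crat, carnitine acetyltransferase (11.9 against 8.21 FPKM at the median; 0.47 ± 0.091, adjusted p = 0.00428), Lonp2 (0.26 ± 0.052, adjusted p = 0.00613) and Pex16 (0.23 ± 0.053, adjusted p = 0.0201).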
